A study of Mus musculus with 6 samples.

Results

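The chaperone and unfolded protein response (UPR) genes of inguinal white adipose tissue (iWAT) were examined in bulk RNA-seq of mice fed a Western diet (WD) for 12 weeks. They were chosen by symbol: every gene whose symbol starts with *Hspa*, *Hspb*, *Hspd*, *Hspe*, *Hsph*, *Hsp90*, *Dnaj* or *Pdia*, and a set of named regulators and endoplasmic reticulum (ER) proteins (*Hsf1*, *Xbp1*, *Atf4*, *Atf6*, *Ern1*, *Eif2ak3*, *Ddit3*, *Herpud1*, *Calr*, *Canx*, *Trib3*, *Ppp1r15a*, *Sel1l*, *Syvn1*, *Edem1*, *Creld2* and *Manf*). This rule found 87 of the 19509 distinct symbols of the count table. The rule uses symbols alone. The rule also named *Atf4* and *Ppp1r15a*, which were not analysed here.

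The study asked what loss of the long noncoding RNA *Lexis* in adipocytes does to iWAT. *Lexis*-AdKO mice carry *Lexis* fl/fl and adiponectin-cre, and *Lexis*-AdWT mice are *Lexis* fl/fl Cre− littermates, so the floxed allele is common to both groups. All were on a C57BL/6 background, and 3 libraries were made per group. Adiponectin-cre acts in adipocytes, and the other cells of the depot keep the gene. The sources used here give neither sex nor age for these 6 libraries.

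The total count was between 14470542 and 17882713 per library. The adipocyte marker list (*Adipoq*, *Plin1*, *Fabp4* and others) summed to 60000, 69300 and 78800 CPM (counts scaled to a common library size, TMM) in the AdWT libraries and to 60700, 56200 and 56000 CPM in the AdKO libraries. It had 9 of 10 genes in the table, of which *Pnpla2* was listed at 0. Of the 8 tested, 7 were lower in value in the AdKO libraries, and their median was −0.24 on the log2 scale. None of the 8 passed the test by adjusted *p*. The lincRNA gene *4930412L05Rik*, taken here as *Lexis* because RefSeq's *Lexis1* likewise lies next to *Abca1*, had 8, 9 and 8 counts in the AdWT libraries and 21, 11 and 13 in the AdKO libraries. Its count was therefore not lower in the libraries labelled AdKO (log2 fold change 0.87, SE 0.381, adjusted *p* = 0.851 by edgeR's quasi-likelihood test). Each AdKO library was above each AdWT library, at levels of only 0.52 to 1.44 CPM. The same held for 6.16% of all rows tested. The two-sided exact permutation *p* was 0.1, the smallest that 3 libraries against 3 allow. The groups are named below by their labels, and every direction rests on those labels. In bulk tissue, fewer cells of a type and less RNA per cell cannot be told apart.

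Chaperones bind proteins that are not yet folded and keep them from aggregating. In the cytosol and mitochondria this work is shared by the HSP70 and HSP90 families, the chaperonin HSP60 with its partner HSP10, and J-domain (DNAJ) proteins that pass clients to HSP70 and drive its ATPase. Hsf1 is the transcription factor that induces many of these genes after heat or other proteotoxic stress. Secreted proteins such as adiponectin are folded in the ER by BiP (*Hspa5*), GRP94 (*Hsp90b1*), the lectin chaperones calreticulin and calnexin and the protein disulfide isomerases. When unfolded proteins accumulate there, the sensors IRE1 (*Ern1*), PERK (*Eif2ak3*) and ATF6 start the UPR, which acts through XBP1, ATF4 and cleaved ATF6 on chaperone and degradation genes.

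The table measured these genes unevenly, and this sets what can be said of each. The 87 symbols took 173 rows, since many symbols have several rows, up to 5 for a gene of this set. The row with the highest total was used for each. The 40 symbols with 1 row had a median total of 3615.5 counts over the 6 libraries, whereas the 47 symbols with 2 or more rows had a median of 129. Among all symbols above 0 these medians were 292 and 108. The 10 highest totals of the set all belonged to symbols with 1 row.

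Several genes that most cells express strongly had low counts. *Hsp90aa1*, the inducible cytosolic HSP90, had between 13 and 19 counts per library, and *Hspa5*, the main ER HSP70, had between 11 and 20. *Hspa8*, the constitutive cytosolic HSP70, had between 30 and 51. *Canx* and *Xbp1* were listed at 0 in all 6 libraries. A search of the mm9 genome with the longest coding transcript of each gene found a near-identical copy elsewhere (at least 300 matching bases at 95% identity or more) for 13 of the 87. *Hspa8* had 6 such copies, the longest with 2096 matching bases at 99.5% identity. *Hsp90aa1* had 2 copies, the longer at 99.5%, while *Hspa1a* and *Hspa1b* matched each other at 99.3%. Copies and low counts did not always go together. *Hspa5*, *Canx* and *Xbp1* had no such copy, while *Hspd1*, with a copy of 2212 matching bases at 99.0%, had 24379 counts in total. The levels of genes with copies or several rows are uncertain. How the counting treated shared reads is not given in the sources used here, and its part in these low counts was not tested.

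**Figure D1:**
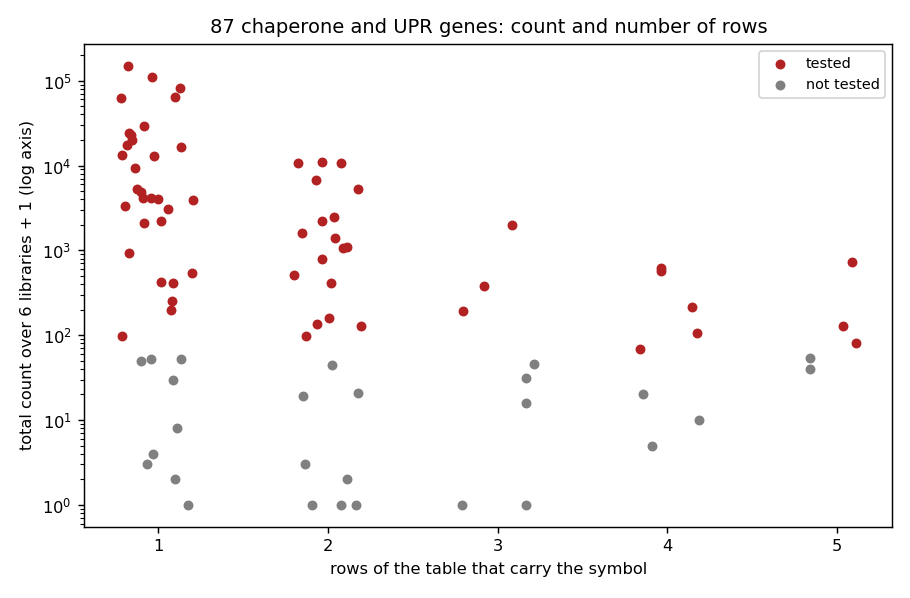
Each point is 1 of the 87 chaperone and UPR genes, with the number of table rows that carry its symbol on the x axis (points are spread sideways) and its total count over the 6 libraries plus 1 on the y axis (log axis). Red points passed the filter on low counts and grey points did not. The symbols with 1 row had a median total of 3615.5 against 129 for those with 2 or more.

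Of the 87 genes, 60 passed edgeR's filter on low counts and were tested. The other 27 were not tested, with 6 at 0 in all libraries (*Canx*, *Xbp1*, *Pdia2*, *Dnajc5b*, *Hspb11* and *Hspbp1*) and 21 with low counts, the highest total among them being 53 counts. A count of 0 in a library allows up to 3 counts, which is 0.179 to 0.206 CPM here, for counting error only.

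Together the 87 genes took 0.827%, 0.738% and 0.751% of the counts of the AdWT libraries and 0.772%, 0.809% and 0.831% of those of the AdKO libraries. The ranges overlapped. Most of this came from a few genes. *Hsp90ab1*, the constitutive cytosolic HSP90, had the highest mean level per kilobase of exon at 533 CPM per kb. *Calr* followed at 409 CPM per kb. The mitochondrial HSP70 *Hspa9* had 222, *Dnajc15* 217, *Pdia3* 213 and *Hsp90b1* 170 CPM per kb. These leading genes all had 1 row, so the order leaves aside genes whose reads the table may split.

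No chaperone or UPR gene differed between the groups after adjustment (0 of 60, adjusted *p* of at least 0.851 by edgeR, corrected by the Benjamini-Hochberg method over all 9872 rows tested). The background was 0% as well, since none of the 9872 rows passed. At an unadjusted *p* under 0.05 the set again had 0 of 60, where 5.73% of all rows passed, with 2.76% of rows higher and 2.98% lower in the AdKO libraries by label. DESeq2, which gave an adjusted *p* to 48 of the genes, called 0 of them. It called 0 of the 81 genes it tested by its unadjusted *p*, where 1.01% of its 19526 rows were higher and 1.41% lower. The smallest unadjusted *p* of the set by edgeR was 0.0648, for *Hspa8*.

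The fold changes were small. Of the 60 genes, 32 were higher and 28 lower in value in the libraries labelled AdKO, and their median log2 fold change was 0.01, as in all rows tested. The median size, whatever the sign, was 0.07 for the set and 0.14 for all rows, but the set was also more abundant (median level 23.0 against 8.84 CPM). Among genes with a mean of at least 10 CPM, 36 of the set and 4746 rows in all, the median size was 0.05 against 0.09. A single gene of the 60, *Dnajc6*, lay beyond 1.5-fold, on between 5 and 26 counts per library. All 6 counts of that gene are given with the J-domain proteins.

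The 95% interval of the fold change shows how large a difference these libraries leave room for. For 41 of the 60 genes (68.3%) the whole interval lay within 1.5-fold of no difference in either direction, and the same held for 46.5% of all rows tested. Among genes with a mean of at least 10 CPM it held for 34 of 36 (94.4%), beside 81.9% of all such rows. The intervals of *Hspa5*, *Hspa8*, *Hsf1* and *Hsp90aa1* passed 1.5-fold on at least 1 side.

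**Figure D2:**
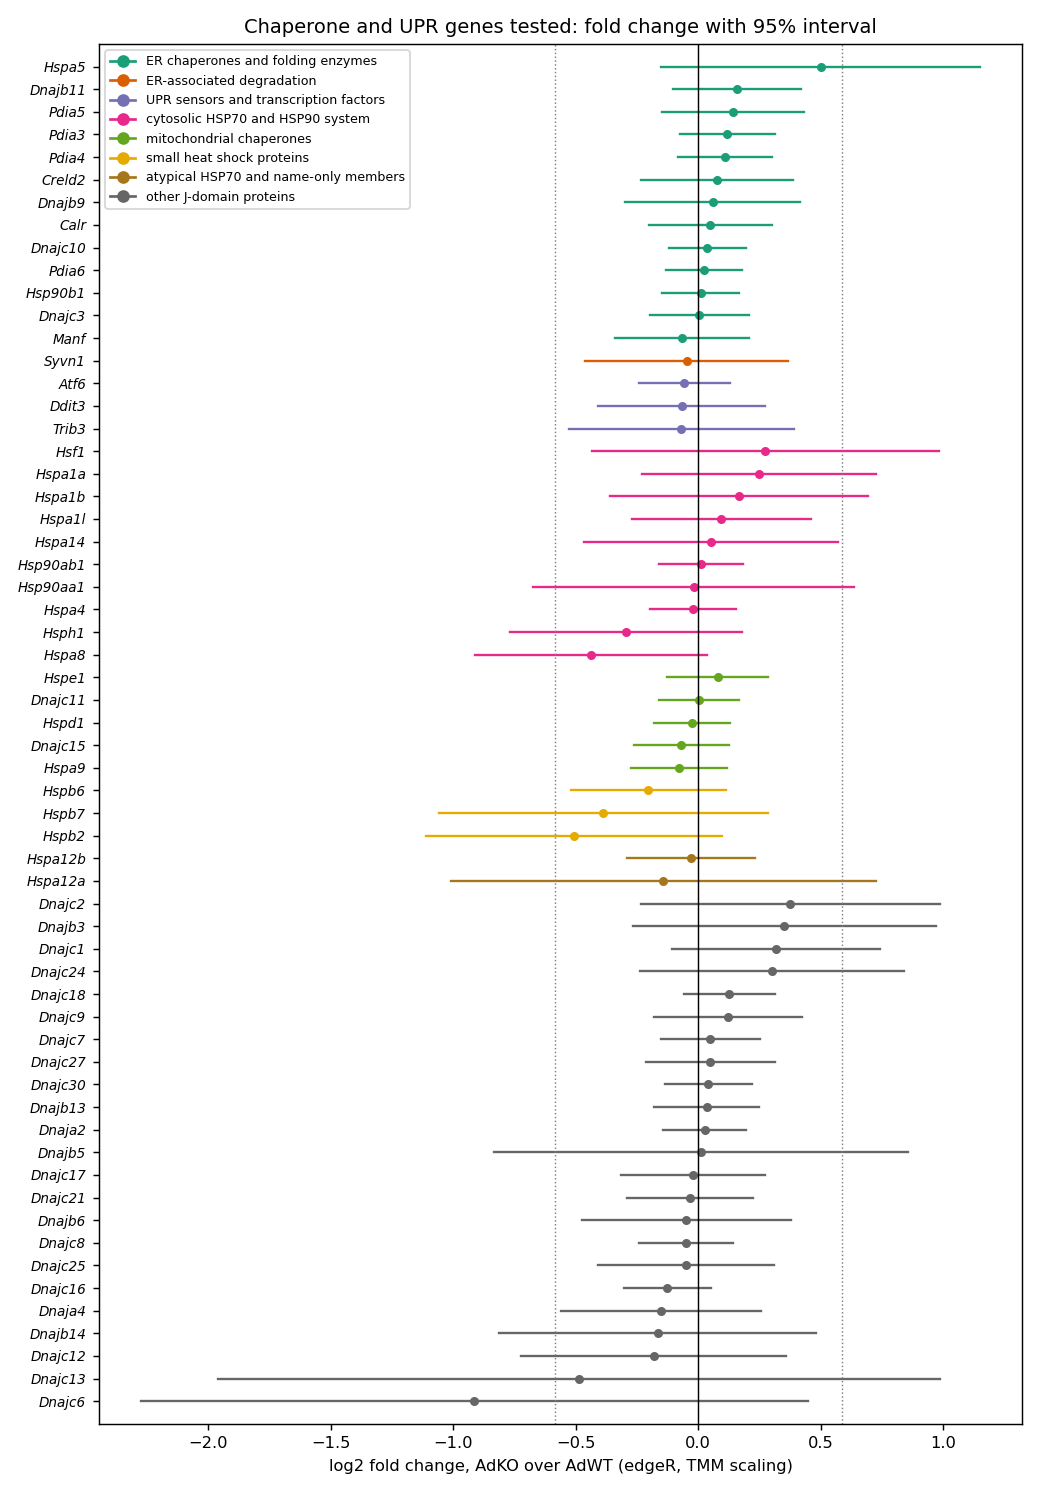
Points are log2 fold changes (AdKO over AdWT, edgeR) of the 60 tested genes, grouped and coloured by role, and lines are their 95% intervals. Dotted lines mark 1.5-fold either way. Each interval includes 0, and 41 of the 60 lie wholly between the dotted lines.

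In 6 of the 60 genes the CPM of the groups did not overlap. They were *Hspa5* and *Dnajc9*, higher in the libraries labelled AdKO (2 of 60, with 6.16% of all rows), and *Hspa8*, *Hsph1*, *Hspb2* and *Hspb6*, lower there (4 of 60, with 5.72% of all rows). The shares of the set were 3.33% higher and 6.67% lower. *Dnajc9*, *Hsph1* and *Hspb6* are named here after their values were seen. For each of the 6 the two-sided exact permutation *p* was 0.1, the smallest that 3 libraries against 3 allow. With symbols of 1 row only, 2 of the 31 genes then tested did not overlap, beside 11.8% of the 4647 rows of that fit.

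Chaperones and folding enzymes of the ER included *Calr*, *Hsp90b1* and *Pdia3*, among the more abundant genes of the set. Some carry in their promoter the ER stress element, a CCAAT box followed after 9 bases by CCACG, which ATF6 and XBP1 are known to bind. It was searched on both strands in RefSeq promoters (GRCm38.p6, from 250 bases before to 50 after the start), of which 71 of the 87 genes had an entry. The element was found in 8 of the 71 (11.3%) and in 37 of all 27025 genes (0.137%). The sites of 5 of these genes are shown 5′ to 3′ on the strand of the gene, the element in capitals with 5 flanking bases, because their genes make up the classical targets of the pathway. In *Calr* the element reads in the opposite direction.
*Hspa5* (chr2:34772020-34772048, plus strand): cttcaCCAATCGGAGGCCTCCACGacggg
*Hsp90b1* (chr10:86705633-86705661, minus strand): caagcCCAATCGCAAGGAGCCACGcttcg
*Dnajc3* (chr14:118937822-118937850, plus strand): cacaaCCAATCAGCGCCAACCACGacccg
*Syvn1* (chr19:6046527-6046555, plus strand): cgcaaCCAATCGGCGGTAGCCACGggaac
*Calr* (chr8:84847070-84847098, minus strand): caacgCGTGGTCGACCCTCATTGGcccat
*Hsp90b1* held a further site nearer to its start. The other genes with the element were *Canx*, *Creld2* and *Pdia6*. The 7 of these 8 genes that were tested had a median log2 fold change of 0.02. A match is a description of these letters and not evidence of binding in iWAT.

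*Hspa5* encodes BiP, which holds the 3 sensors inactive until clients draw it away. The gene lies on chromosome 2 from 34627490 to 34632051 on the plus strand of mm9 (ENSMUSG00000026864.7). The table gave 11, 18 and 12 counts in the AdWT libraries and 20, 19 and 18 in the AdKO libraries, or 0.720, 1.08 and 0.803 CPM against 1.38, 1.25 and 1.08 CPM. The lowest AdKO library and the highest AdWT library differed by less than 0.01 CPM (1.082 and 1.076). The log2 fold change was 0.50 (SE 0.279, 95% interval −0.15 to 1.15, adjusted *p* = 0.853 by edgeR).

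*Hsp90b1* encodes GRP94, the HSP90 of the ER. It was the steadiest ER gene, with 684, 693 and 677 CPM in the AdWT libraries and 688, 666 and 715 CPM in the AdKO libraries. Its log2 fold change was 0.01 (95% interval −0.15 to 0.17). The AdWT values lay inside the AdKO range.

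*Calr*, which encodes calreticulin, a calcium-binding chaperone of glycoproteins, had 1273, 1132 and 1070 CPM in the AdWT libraries. It had 1085, 1333 and 1180 CPM in the AdKO libraries. The groups overlapped widely (log2 fold change 0.05, 95% interval −0.20 to 0.30).

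*Pdia3*, the disulfide isomerase that works with calreticulin, had 694, 632 and 598 CPM in the AdWT libraries and 666, 730 and 693 CPM in the AdKO libraries. *Manf*, an ER-resident secreted factor, was the only tested gene of this group that was lower in value in the libraries labelled AdKO, with 26.8, 23.0 and 23.1 CPM against 20.7, 25.0 and 23.8 CPM. Neither passed the test.

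In all, 12 of the 13 tested ER chaperones and folding enzymes were higher in value in the libraries labelled AdKO, beside 5105 of all 9872 rows. The count rests on how the list was drawn, and the J-domain proteins outside it are given separately below. The median log2 fold change of the 13 was 0.06. It was 0.13 without AdWT replicate 1, 0.12 without AdKO replicate 1 and 0.03 without AdWT replicate 3. None of the 13 passed the test by adjusted or unadjusted *p*. The count of 12 was smaller under other settings, with 10 of 13 higher under RLE scaling, upper quartile scaling and DESeq2, and 8 of 13 without AdWT replicate 3. The summed CPM of the group was 3570, 3390 and 3240 in the AdWT libraries and 3370, 3670 and 3570 in the AdKO libraries. These ranges overlapped, and AdWT replicate 3 was the lowest library. Macrophage markers moved alongside, with sums of 1350, 911 and 504 CPM in the AdWT libraries and 1130, 1280 and 1690 CPM in the AdKO libraries. AdWT replicate 3 was lowest there too. Of the 9 genes of that list 7 were in the table, *Emr1* was listed at 0, and 5 of the 6 tested were higher in value in the AdKO libraries by label (median 0.41). B and plasma cell markers, of cells rich in ER, summed to 371 CPM in AdWT replicate 1 and to between 10.3 and 19.6 CPM in the other libraries. Of the 11 genes of that list 10 were in the table, *Fcrla* and *Cr2* were listed at 0, and *Igj* led with 5172 counts in AdWT replicate 1. That library was the highest AdWT library for *Calr*, *Creld2*, *Manf*, *Pdia5* and *Pdia3*. Most of the 13 tested genes were highest in another AdWT library, namely *Hsp90b1*, *Dnajc3*, *Pdia4*, *Dnajc10*, *Dnajb9*, *Pdia6*, *Dnajb11* and *Hspa5*. Without it the log2 fold change of *Manf* was 0.01. The part of either list in the ER values was not tested.

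ER-associated degradation returns misfolded proteins to the cytosol for the proteasome. Of its 4 genes only *Syvn1*, the membrane ubiquitin ligase HRD1, was tested. It had 7.26, 5.14 and 6.16 CPM in the AdWT libraries and 5.64, 6.13 and 6.19 CPM in the AdKO libraries (log2 fold change −0.05, 95% interval −0.46 to 0.37). Without AdWT replicate 1, its highest library, the value was 0.09. *Edem1* had between 5 and 10 counts per library and *Sel1l* between 5 and 9. *Herpud1*, a target of the UPR, had at most 1 count in any library.

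The sensors and transcription factors of the UPR were only in part measurable. *Eif2ak3* (PERK) had between 2 and 7 counts per library. *Ern1* (IRE1) had 1, 0 and 6 counts in the AdWT libraries and 1, 0 and 7 in the AdKO libraries. Epithelial markers, with 5 of 7 genes in the table and none of those at 0, were likewise high in replicate 3 of each group, with 1.44, 0.956 and 20.3 CPM in the AdWT libraries and 0.894, 1.12 and 48.0 CPM in the AdKO libraries. Their part in the *Ern1* counts was not tested. *Xbp1* was listed at 0 throughout, so the splicing of its RNA by IRE1 cannot be read from these counts.

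*Atf6*, the sensor that is cleaved to a transcription factor, had 178, 190 and 178 CPM in the AdWT libraries. In the AdKO libraries it had 174, 161 and 190 CPM. The highest values of both groups were equal to within 1 CPM, and the log2 fold change was −0.06 (95% interval −0.24 to 0.13). It was −0.12 without AdKO replicate 3 and −0.008 without AdKO replicate 2.

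*Ddit3* encodes CHOP, a transcription factor of prolonged ER stress. Its level was 37.6, 38.3 and 51.9 CPM in the AdWT libraries and 37.4, 39.3 and 45.1 CPM in the AdKO libraries. *Trib3*, a pseudokinase induced by ATF4 and CHOP, had 20.7, 19.6 and 28.3 CPM against 26.4, 21.6 and 17.5 CPM. In both genes AdWT replicate 3 was the highest library of the 6. The log2 fold changes were −0.07 for both, with 95% intervals of −0.41 to 0.27 for *Ddit3* and −0.53 to 0.39 for *Trib3*. Without AdWT replicate 3 they were 0.09 and 0.10, and without AdKO replicate 3 that of *Trib3* was 0.07.

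The cytosolic system was led by *Hsp90ab1* (chromosome 17 of mm9, 45704724 to 45710220, minus strand, ENSMUSG00000023944.8). It had 1637, 1587 and 1553 CPM in the AdWT libraries and 1574, 1637 and 1604 CPM in the AdKO libraries. Over the 6 libraries its coefficient of variation was 2.13%, the lowest of the 36 genes with a mean of at least 10 CPM. The log2 fold change was 0.01 with a 95% interval of −0.16 to 0.18.

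*Hspa8* supplies the HSP70 activity of unstressed cells and also drives chaperone-mediated autophagy. The gene lies on chromosome 9 of mm9 from 40609067 to 40613283 on the plus strand (ENSMUSG00000015656.10). Its counts were 50, 46 and 51 in the AdWT libraries and 30, 33 and 45 in the AdKO libraries, or 3.27, 2.75 and 3.41 CPM against 2.06, 2.17 and 2.70 CPM. Each AdKO library lay below each AdWT library, the nearest by 2.70 against 2.75 CPM. The log2 fold change was −0.44 (SE 0.202, 95% interval −0.91 to 0.03, adjusted *p* = 0.851 by edgeR). With 6 near-identical copies of *Hspa8* in the genome, its level is uncertain.

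*Hsph1* encodes HSP110, which exchanges the nucleotide of HSP70. It had 4.51, 4.42 and 4.42 CPM in the AdWT libraries and 3.64, 2.83 and 4.39 CPM in the AdKO libraries. The AdKO libraries were lower but 1 of them came within 0.1 CPM of the AdWT range (log2 fold change −0.30, 95% interval −0.77 to 0.18, with −0.15 without AdKO replicate 2 and −0.46 without AdKO replicate 3).

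The genes by which a heat shock response is usually read did not pass the test. *Hsf1* had 12 counts in each of the 3 AdWT libraries and 17, 11 and 15 in the AdKO libraries. The stress-inducible HSP70 genes *Hspa1a* and *Hspa1b* lie close together on chromosome 17 and are near-identical over most of their length, so reads may be split between them. *Hspa1a* had 4.51, 3.65 and 4.48 CPM in the AdWT libraries and 6.12, 4.22 and 4.69 CPM in the AdKO libraries. *Hspa1b* had 5.17, 4.54 and 6.62 CPM against 5.84, 4.94 and 7.51 CPM. The groups overlapped in both, with 95% intervals of −0.23 to 0.72 and −0.36 to 0.69 on the log2 scale. *Hsp90aa1* had 19, 14 and 16 counts against 13, 18 and 17. In all, 6 of the 10 tested genes of this group were higher and 4 lower in value (median log2 fold change 0.03). This median was 0.08 without AdWT replicate 1, 0.01 without AdWT replicate 2 and −0.01 without AdKO replicate 2, with 4 of 10 higher in the last.

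A heat shock element, here 3 blocks of GAA and TTC in alternation with 2 bases between blocks, was found in the promoters of 4 of the 71 genes (5.63%) and of 179 of all 27025 (0.662%). These were *Dnajb6*, *Hspd1*, *Hspe1* and *Hsph1*. The site between *Hspd1* and *Hspe1* is shown, on the strand of *Hspd1*, because these genes lie head to head and their promoter windows share it. The capitals mark 1 element, and 2 overlapping elements fill the stretch.
*Hspd1* (chr1:55088059-55088081, minus strand, GRCm38.p6): gggccTTCCGGAAGGTTCtagaa
The 4 genes had a median log2 fold change of −0.04.

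*Hspd1* (HSP60) and *Hspe1* (HSP10) form the chaperonin that folds proteins imported into the mitochondrial matrix. *Hspd1* had 250, 276 and 263 CPM in the AdWT libraries and 258, 266 and 253 CPM in the AdKO libraries. *Hspe1* had 39.9, 45.1 and 43.4 CPM against 42.3, 45.4 and 48.0 CPM. Neither separated the groups, with log2 fold changes of −0.02 and 0.08. That of *Hspe1* was 0.03 without AdWT replicate 1 and 0.13 without AdKO replicate 1.

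*Hspa9*, the matrix HSP70 known as mortalin, had 815, 957 and 916 CPM in the AdWT libraries and 823, 860 and 864 CPM in the AdKO libraries. The AdKO libraries lay within the AdWT range (log2 fold change −0.08, 95% interval −0.27 to 0.12). The fold change was −0.14 without AdWT replicate 1 and −0.03 without AdWT replicate 2. Of the 5 mitochondrial chaperones tested, 2 were higher and 3 lower in value, and with all libraries their log2 fold changes lay between −0.08 and 0.08.

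The small heat shock proteins hold unfolded clients without ATP, and several are typical of heart and skeletal muscle. All 3 that were tested were lower in value in the libraries labelled AdKO. Their median log2 fold change was −0.39, and it was −0.15 without AdKO replicate 1 and −0.24 without AdWT replicate 3. With any other single library left out it lay between −0.403 and −0.325. None passed the test. *Hspb1* (HSP27) had between 1 and 6 counts per library and was not tested.

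*Hspb2* is known from heart and skeletal muscle. Its counts were 22, 35 and 23 in the AdWT libraries and 20, 18 and 17 in the AdKO libraries, or 1.44, 2.09 and 1.54 CPM against 1.38, 1.19 and 1.02 CPM. The groups did not overlap, and AdWT replicate 2 stood highest (log2 fold change −0.51, SE 0.259, adjusted *p* = 0.853 by edgeR).

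*Hspb6* (HSP20), which is abundant in muscle of all kinds, had 11.8, 12.0 and 13.7 CPM in the AdWT libraries and 9.76, 11.7 and 11.1 CPM in the AdKO libraries. These groups did not overlap either, the nearest libraries differing by less than 0.2 CPM. The log2 fold change was −0.20 (95% interval −0.52 to 0.11), and −0.13 without AdKO replicate 1.

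*Hspb7*, a partner of filamin in heart and muscle, had 40.1, 27.0 and 44.6 CPM in the AdWT libraries and 18.4, 27.9 and 39.0 CPM in the AdKO libraries. The groups overlapped, and *Hspb7* had the highest coefficient of variation of the 36 genes with a mean of at least 10 CPM, 30.4%. Its log2 fold change was −0.39 (95% interval −1.06 to 0.28). It was −0.15 without AdKO replicate 1 and −0.69 without AdKO replicate 3.

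The skeletal muscle marker list, like these genes, was lower in the libraries labelled AdKO, but it did not follow them library by library. It summed to 103, 291 and 73.3 CPM in the AdWT libraries and to 61.5, 64.9 and 60.7 CPM in the AdKO libraries. Of its 39 genes 30 were in the table, *Tnnt3*, *Myh4* and *Ampd1* were listed at 0, and 12 of the 14 tested were lower in value in the libraries labelled AdKO. The smooth muscle list, with 4 of 6 genes in the table and none of those at 0, did not share this direction. It summed to 181, 107 and 138 CPM in the AdWT libraries and to 174, 176 and 215 CPM in the AdKO libraries, and all 3 genes tested were higher in value in the latter. AdWT replicate 2, highest for the skeletal muscle list, was the highest library for *Hspb2* but the lowest AdWT library for *Hspb7*. AdWT replicate 3, the lowest AdWT library for that list, was the highest library for *Hspb6* and *Hspb7* (13.7 and 44.6 CPM). The mean log2 CPM of the list was between 0.81 and 2.59 in the AdWT libraries and between −0.12 and 0.03 in the AdKO libraries, so muscle RNA and group cannot be told apart in these genes. A fit with that mean as a covariate gave log2 fold changes of −0.06 for *Hspb2*, −0.31 for *Hspb6* and −0.92 for *Hspb7*, and nothing is read from them. Without AdWT replicate 2 that of *Hspb2* was −0.33.

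**Figure D3:**
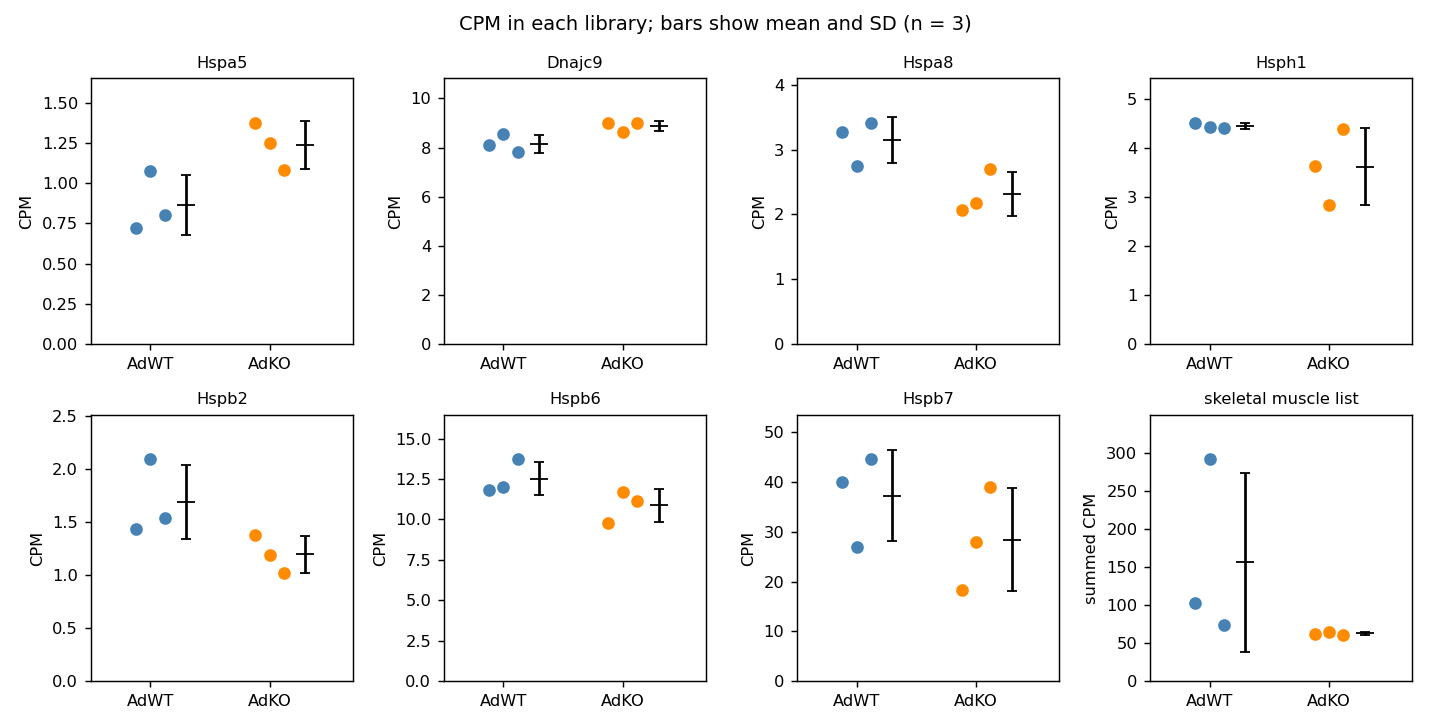
CPM of each library (blue, AdWT, orange, AdKO) for the 6 genes whose groups do not overlap and for *Hspb7*, with the summed CPM of the skeletal muscle list in the last panel. Black bars are the mean and SD of 3 libraries, and every y axis starts at 0. The muscle list is highest in AdWT replicate 2 (the middle blue point), at 291 CPM.

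The J-domain proteins outside the groups above numbered 32, and 23 were tested. They were split evenly in sign, 12 higher and 11 lower in value, with a median log2 fold change of 0.01. *Dnaja2*, a cytosolic partner of HSP70, was the most abundant, with 241, 261 and 229 CPM in the AdWT libraries and 241, 257 and 247 CPM in the AdKO libraries.

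*Dnajc6* encodes auxilin, which uncoats clathrin vesicles together with HSP70. It had the lowest level and the most negative fold change of the 60 tested genes. Its counts were 14, 26 and 5 in the AdWT libraries and 8, 10 and 5 in the AdKO libraries, so 1 AdWT library was as low as any AdKO library. The log2 fold change was −0.91 with a 95% interval of −2.28 to 0.45. It was −0.33 without AdWT replicate 2 and −1.31 without AdWT replicate 3. *Dnajc2*, a ribosome-associated J-domain protein, had the highest fold change of these 23 J-domain genes at 0.38, on 20, 16 and 20 counts against 27, 20 and 25 (0.23 without AdWT replicate 2 and also without AdKO replicate 1).

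*Dnajc9*, a J-domain protein that also binds histones, had 8.11, 8.55 and 7.83 CPM in the AdWT libraries and 9.01, 8.63 and 9.01 CPM in the AdKO libraries. All AdKO libraries were above all AdWT libraries, by less than 0.1 CPM at the nearest. The log2 fold change was 0.12 (95% interval −0.18 to 0.42).

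*Hspa12b*, an atypical HSP70 known from endothelium, did not separate the groups. It had 216, 177 and 173 CPM in the AdWT libraries and 192, 198 and 165 CPM in the AdKO libraries. The 4 endothelial markers in the table summed to 1330, 1000 and 925 CPM and to 1120, 1280 and 898 CPM. AdWT replicate 1 was the highest and AdKO replicate 3 the lowest library for both. *Hspa12a*, its paralog, had between 14 and 41 counts per library and a log2 fold change of −0.14. It was 0.19 without AdKO replicate 2 and −0.48 without AdKO replicate 1.

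Across libraries, the set was steady. Among genes with a mean of at least 10 CPM, the coefficient of variation over the 6 libraries had a median of 6.74% in the set and of 9.18% in all 4746 rows. After *Hsp90ab1*, *Hsp90b1* varied least (2.44%) and *Dnajc11*, a mitochondrial J-domain protein, next (2.95%). Each library was the highest of the 6 for between 5 and 15 of the 60 tested genes, AdWT replicate 3 most often, and the lowest for between 6 and 14.

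**Figure D4:**
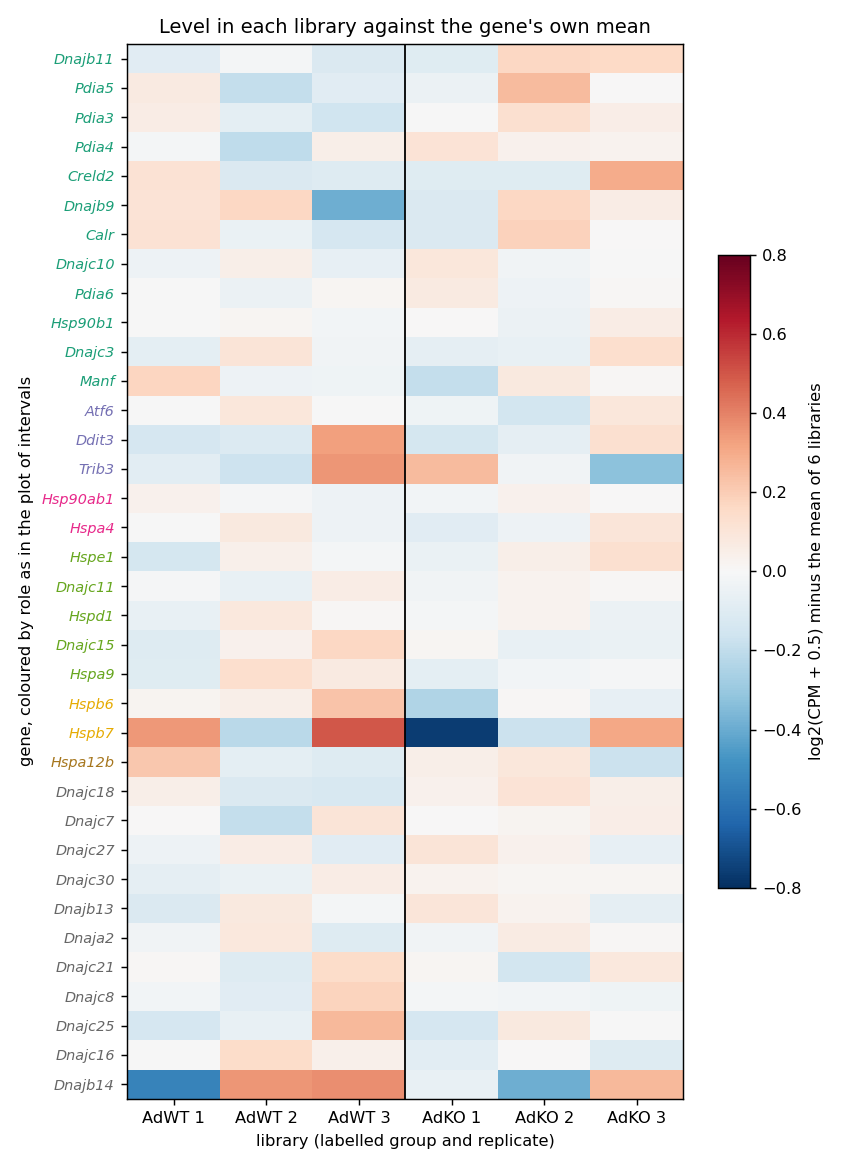
Colour shows log2(CPM + 0.5) in each library minus the mean of the gene over the 6 libraries, from −0.8 (blue) to 0.8 (red), for the 36 genes with a mean of at least 10 CPM. Libraries are columns, with a line between AdWT and AdKO. Most cells are pale, and the strongest colours are those of *Hspb7* and *Dnajb14*, whose coefficients of variation were 30.4% and 26.4% and whose groups overlap.

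Genes of the same pathways outside the set were read from lists. Of 34 further ER stress genes, 27 were tested, and 10 were higher and 17 lower in value in the libraries labelled AdKO (median log2 fold change −0.06). None passed by adjusted *p*, and 2 of 27 had an unadjusted *p* under 0.05, both lower, where 2.98% of all rows were lower by the same rule. The adipocyte markers were also lower in value in the AdKO libraries, as given above, and their part in the values of this list and the next was not tested. *Creb3l2*, an ER-bound transcription factor of secretory cells, had 145, 153 and 154 CPM in the AdWT libraries and 134, 124 and 120 CPM in the AdKO libraries (log2 fold change −0.26, SE 0.0685, adjusted *p* = 0.837 by edgeR). *Sil1*, which exchanges the nucleotide of BiP, had a log2 fold change of −0.22. Without AdWT replicate 3 it was −0.15, with an unadjusted *p* of 0.126 by edgeR. Without AdWT replicate 1 it was −0.29, with an unadjusted *p* of 0.0117 by edgeR. *Hyou1*, another ER chaperone, had at most 1 count in any library.

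The integrated stress response includes the branch of the UPR that runs from PERK to ATF4. Of 20 of its target genes outside the set, 15 were in the table and 14 were tested, 3 higher and 11 lower in value (median −0.06). *Sesn2*, a stress-induced brake on mTORC1, had 137, 164 and 166 CPM in the AdWT libraries and 127, 114 and 122 CPM in the AdKO libraries. All AdKO libraries were below all AdWT libraries (log2 fold change −0.37, SE 0.0922, adjusted *p* = 0.817 by edgeR). *Phgdh*, the entry enzyme of serine synthesis, had 192, 217 and 220 CPM against 197, 146 and 168 CPM, and the groups overlapped. Its log2 fold change was −0.30 with all libraries. It was −0.21 without AdKO replicate 2 (unadjusted *p* of 0.101 by edgeR). Without AdKO replicate 1 it was −0.415 (unadjusted *p* of 0.00708 by edgeR). *Sesn2* and *Phgdh* were the 2 of 14 genes with an unadjusted *p* under 0.05, again beside 2.98% of all rows, and neither passed after adjustment.

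Of 30 cytosolic folding cofactors outside the set, 20 were tested, 12 higher and 8 lower in value, with a median log2 fold change of 0.01. *St13*, the HSP70-interacting protein HIP, was the only one with an unadjusted *p* under 0.05. It had 572, 621 and 624 CPM in the AdWT libraries and 542, 540 and 531 CPM in the AdKO libraries (log2 fold change −0.17, SE 0.0686). Its adjusted *p* was 0.851 by edgeR, and without AdKO replicate 3 its unadjusted *p* was 0.114. Without AdWT replicate 1 its log2 fold change was −0.21, with an unadjusted *p* of 0.0186 by edgeR.

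Other promoter motifs were as frequent in the set as elsewhere or rare in both. The UPR element TGACGTGG was found in 1 of 71 genes (1.41%, *Dnajc25*) and in 0.714% of all genes. The ATF4 composite element, TGATG and AA with 1 base between, was found in 3 of 71 (4.23%) and in 4.51% of all. These were *Herpud1*, *Hspa14* and *Trib3*.

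**Figure D5:**
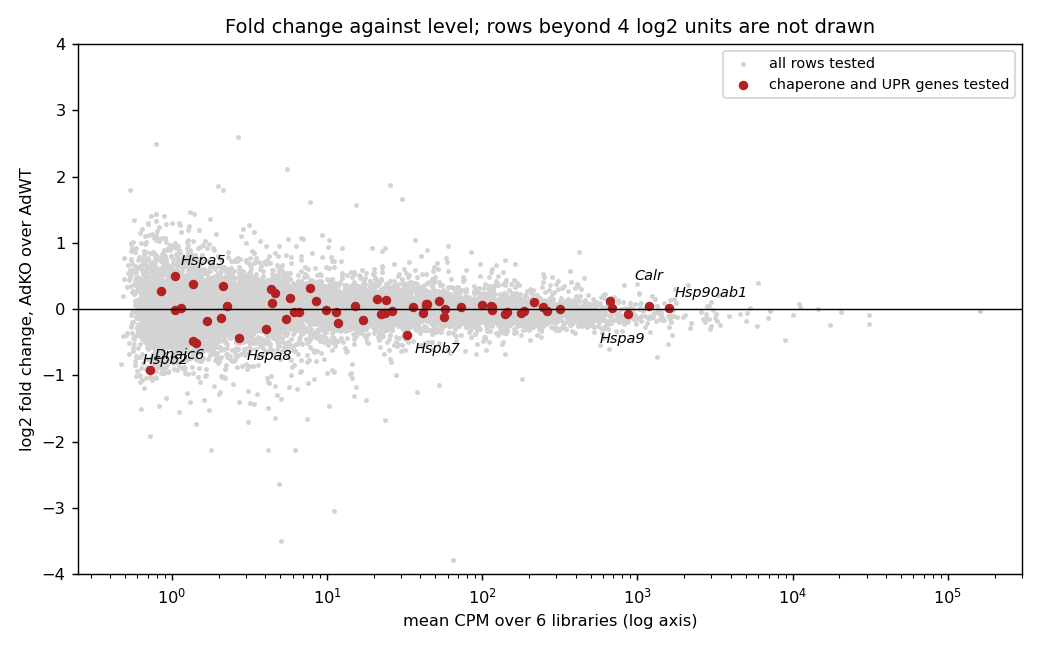
Each grey point is 1 of the 9872 rows tested and each red point 1 of the 60 chaperone and UPR genes, with the mean CPM over 6 libraries on the x axis (log axis) and the log2 fold change, AdKO over AdWT, on the y axis. Rows beyond 4 log2 units, 4 in all, are not drawn. The red points lie within the grey cloud and close to 0 above 10 CPM, with *Dnajc6* the lowest at −0.91.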

How the data were processed

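Total RNA of iWAT was made into libraries with the KAPA Stranded RNA-Seq Kit. Reads were aligned to mm9 with HISAT2, and the authors deposited raw counts per row, with a gene symbol and no normalization. The counting tool, its strand setting and its treatment of shared reads are not given in the sources used here. The submitters' processing notes name mm9 and DESeq2. The table had 37024 rows, of which 17470 were at 0 in all 6 libraries. Libraries had 14470542 to 17882713 counts.

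Counts were compared with edgeR 4.0.16 (R 4.3.3): filterByExpr by group, TMM scaling, glmQLFit and glmQLFTest, AdKO against AdWT, with Benjamini-Hochberg adjustment over the 9872 rows kept, at 0.05. Standard errors were obtained from the fold change and the test's F, and 95% intervals from the t distribution. CPM use TMM library sizes. The common biological coefficient of variation was 0.196. Exact permutation tests used log2(CPM + 0.5). Nothing says that replicates with the same number share a litter or day. The edgeR *p* values set the difference between the groups against the spread between these libraries, which is estimated in part from all rows tested. The fit was tested on simulated data.

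Genes were named by a rule: the defining regulators and effectors, any gene with an unadjusted *p* under 0.05, and in each role the highest and lowest in level and in fold change. The genes, lists and tests were chosen with earlier results of these data known. Gene positions are from GENCODE vM1 (mm9) and promoters from RefSeq (GRCm38.p6). Copies were searched with minimap2 2.31. Alternatives were DESeq2 1.42.0, other scaling factors (RLE, upper quartile, none), looser and stricter filters (1 count in any library, 10 counts in all of them), robust fitting, a block for the replicate number, summed rows per symbol, the muscle list as a covariate or taken out, and leaving out each library. A fit of symbols with 1 row only and the limit of 10 CPM for intervals were added after seeing the data. Python 3.11.15 with scipy 1.17.1 and matplotlib 3.10.9 was used.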

Additional observations from a re-analysis of the deposited data

How the results depend on the processing

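Under all 18 alternatives no chaperone or UPR gene had an adjusted *p* under 0.05. The number with an unadjusted *p* under 0.05 was 0 in each direction except that it was 2 higher (*Dnajc1*, *Dnajc24*, with 1.62% of all rows) with the skeletal muscle list as a covariate, and lay between 0 and 1 higher and between 0 and 2 lower with each library left out, where 1.66% to 7.2% of all rows were higher and 1.54% to 4.64% lower. *Dnajc18* passed without AdWT replicate 1, *Dnajc24* without AdWT replicate 2, *Dnajc6* without AdWT replicate 3, and *Hspa8* and *Hspb7* without AdKO replicate 3. The number of genes whose groups do not overlap was 6 (11.9% of all rows in the main fit), with these exceptions. It was 7 of 60 with library size scaling, beside 11.6% of all rows. With the filter of 1 count in any library it was 7 of 81, beside 9.07%. It was 2 with symbols of 1 row only, where fewer genes were tested (11.8% of rows). It lay between 10 and 14 with a library left out, where fewer samples must separate and 17.9% to 31.8% of all rows did not overlap. The median log2 fold change lay between −0.02 and 0.05 over all alternatives. Library size scaling gave the upper value, together with a median of 0.05 for all rows. The deviations of same-numbered libraries from their group means had correlations of −0.08, −0.13 and 0.33, positive for replicate 3 only. Libraries with different numbers had correlations between −0.33 and 0.411. With the replicate number as a block 0 genes passed and the median was 0.01.

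Of 562 values of named genes, 516 kept their direction and their side of the threshold, 7 kept their direction but had no adjusted *p* from DESeq2, and 39 changed sign, none of them past the threshold. The cause was not tested. *Hsp90ab1* and *Hsp90b1*, whose fold changes are near 0, became −0.001 and −0.003 under RLE, −4.1e-05 and −0.002 under upper quartile scaling, −0.003 and −0.005 by DESeq2, and −0.001 and −0.002 with symbols of 1 row only. Library size scaling gave 0.025 for *Hsp90aa1*, 0.01 for *Hspa12b* and 0.025 for *Hspd1*. The muscle covariate gave 0.049 for *Atf6*, −0.073 for *Dnajc2*, 0.684 for *Dnajc6*, −0.052 for *Hspa1a*, −0.193 for *Hspa1b*, 0.039 for *Hspa9* and 0.062 for *Hspd1*. With each library left out, the range was −0.039 to 0.124 for *Calr*, −0.149 to 0.091 for *Ddit3*, −0.025 to 0.072 for *Dnaja2*, −0.166 to 0.121 for *Hsp90aa1*, −0.015 to 0.032 for *Hsp90ab1*, −0.017 to 0.028 for *Hsp90b1*, −0.483 to 0.189 for *Hspa12a*, −0.096 to 0.082 for *Hspa12b*, −0.013 to 0.322 for *Hspa1b*, −0.059 to 0.008 for *Hspd1*, −0.132 to 0.01 for *Manf*, −0.17 to 0.085 for *Syvn1* and −0.227 to 0.104 for *Trib3*. *Hspa5* lay between 0.385 and 0.945, *Hspa8* between −0.68 and −0.363 and *Hspb2* between −0.616 and −0.058 over their alternatives. *Hspa5*, *Hspa8*, *Hsp90aa1* and *Hspb2* had low counts per library and wide intervals, and no setting varied the depth.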
